A study of Mus musculus with 18 samples.

Results

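The 6 genes Gzma, Gzmb, Gzmc, Prf1, Nkg7 and Srgn, which encode proteins of cytotoxic granules, were followed through RNA sequencing of mouse LSK cells. They were taken by symbol (in capitals in the tables: GZMA, GZMB, GZMC, PRF1, NKG7 and SRGN) out of 25601 different gene names. The set was selected on the measured granzyme levels with and without DL1 in these same libraries, where granzyme RNA is higher with DL1. The values with and without DL1 are therefore given as a description, without a test, whereas the changes after irradiation were not used in the choice and were tested. LSK cells are the bone marrow cells that lack lineage markers and carry cKit and Sca1, the fraction that holds hematopoietic stem cells and multipotent progenitors, here from C57Bl/6 mice whose age the labels do not give.

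There were 18 libraries in 6 groups of 3. A sublethal dose of 2.5 Gy had been given to the irradiated mice, which then recovered for 9 weeks or longer, while control mice carried the condition label normal. In 4 groups, 200 LSK cells from 1 mouse were cultured for 6 days with stem cell factor (mSCF) plus hFlt3L, and also hIL-11 and hIL-6, and sorted again as LSK cells. These groups were irradiated cells with DL1, control cells with DL1, irradiated cells without DL1 and control cells without DL1. DL1 is not spelled out in the labels and was read as the Notch ligand Delta-like 1, and how it was presented is not given. The other 2 groups were irradiated and control LSK cells taken directly after sorting, each library pooled from 3 mice. The labels name no transgene or deletion in any group, and all cultures had the same cytokines.

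Granzymes are serine proteases that cytotoxic T cells and natural killer (NK) cells store in secretory granules and release onto target cells. Perforin, the product of Prf1, forms the pores through which granzymes reach the target cell. Serglycin, the product of Srgn, is a small proteoglycan whose chondroitin sulfate or heparin chains bind granule proteases, in mast cells and neutrophils as well as in lymphocytes. Nkg7 is a granule membrane protein needed for efficient release of cytotoxic granules. In the mouse, Gzmb, Gzmc and further granzyme genes share a cluster with cathepsin G and mast cell protease genes. Notch receptors act through the DNA-binding protein RBPJ, and RUNX proteins are known regulators of the granzyme B gene in T cells.

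The stretch before the annotated start is shown for the 3 granzyme genes that differed most with DL1 and for Nkg7, the member with the largest change after irradiation. Each line gives the 250 bases before the start from the RefSeq table for GRCm38.p6, 5′ to 3′ on the gene's strand. Capitals mark the letters TGTGGT or their reverse complement ACCACA, a RUNX core.
Gzma, chr13:113100982-113101231, minus strand: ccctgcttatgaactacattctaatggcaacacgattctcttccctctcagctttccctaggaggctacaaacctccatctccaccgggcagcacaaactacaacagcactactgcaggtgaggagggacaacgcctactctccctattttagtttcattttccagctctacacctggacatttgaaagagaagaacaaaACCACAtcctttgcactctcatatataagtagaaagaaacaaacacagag
Gzmb, chr14:56262335-56262584, minus strand: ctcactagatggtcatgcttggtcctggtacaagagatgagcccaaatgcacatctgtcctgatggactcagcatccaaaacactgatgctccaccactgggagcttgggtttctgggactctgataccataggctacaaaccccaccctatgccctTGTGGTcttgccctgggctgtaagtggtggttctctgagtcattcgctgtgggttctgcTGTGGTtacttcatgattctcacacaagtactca
Gzmc, chr14:56234658-56234907, minus strand: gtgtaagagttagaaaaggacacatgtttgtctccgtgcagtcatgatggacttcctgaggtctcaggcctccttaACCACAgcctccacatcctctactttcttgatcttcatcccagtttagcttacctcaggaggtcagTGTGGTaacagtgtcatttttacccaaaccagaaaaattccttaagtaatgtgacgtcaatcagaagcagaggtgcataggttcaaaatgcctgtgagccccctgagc
Nkg7, chr7:43436888-43437137, plus strand: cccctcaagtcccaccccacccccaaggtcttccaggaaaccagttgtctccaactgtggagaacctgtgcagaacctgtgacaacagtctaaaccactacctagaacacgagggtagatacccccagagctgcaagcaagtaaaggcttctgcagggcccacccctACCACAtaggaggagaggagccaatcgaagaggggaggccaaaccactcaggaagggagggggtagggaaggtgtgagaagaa

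All 4 windows held the RUNX letters, 2 times each for Gzmb and Gzmc, against 14.0% of 32851 mouse windows with at least 1 match and 1.27% with 2 or more. The matches began 93 and 34 bases before the start of Gzmb, and 174 and 108 bases before that of Gzmc. Those of Gzma and Nkg7 lay 50 and 83 bases before their starts. The RBPJ letters TGGGAA, searched on both strands like every motif here, occurred in none of these 4 windows and in 21.6% of all windows. Of the windows not shown, that of Prf1 held both, the RBPJ letters 142 and the RUNX letters 130 bases before the start, and 1 of the 2 Srgn windows held the RUNX letters (202 bases before), while the RBPJ letters were in neither. The Gzmc window held the letters ACGTCA of a cyclic AMP response element 2 times, as overlapping matches on opposite strands 57 and 55 bases before the start (6.47% of all windows hold it). The Gzmb window held 1 match to the AP-1 letters TGANTCA, 58 bases before the start (6.75% of all windows). A T-box match, GGTGTGA, lay 13 bases before the start of Nkg7 (3.33% of all windows). These are matches of letters in short windows, and binding was not measured. The genes and motifs were chosen with results of these data known, so nothing is read from the shares.

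Levels are in FPKM, fragments per unit of transcript length and of library size, so that levels of different genes can be set side by side. Changes are given on the log2(FPKM + 1) scale with their standard error, and a change was called when its adjusted p, from limma across all tested genes, was under 0.05. Values are ordered by replicate, with mean ± SD over 3 libraries where given. The cultured and the freshly sorted tables were normalized separately and are not compared. Of the 6 genes, 5 passed the filter of a mean FPKM of at least 1 in the cultured table (all but Prf1) and 3 in the fresh table (Gzmb, Nkg7 and Srgn). Gzma and Gzmc passed in the cultured table only through the groups with DL1.

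The number of reads per library is not given in the tables. Relative depth, read from the lowest values, ran from 0.756 to 1.09 in 11 cultured libraries, and was 0.488 in irradiated replicate 2 with DL1. Among fresh libraries it ran from 0.645 to 1. The sort markers Kit and Ly6a, which encode cKit and Sca1, were present in every group, with means of 34.3 to 39.0 FPKM for Kit and 496 to 597 FPKM for Ly6a in cultures.

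Gzmb and Gzmc carried most of the granzyme RNA in cultures with DL1. Gzmb, whose product cleaves after aspartate and can start apoptosis, had 13.8, 15.1 and 13.9 FPKM in irradiated cultures with DL1 and 16.6, 16.6 and 19.7 FPKM in control cultures with DL1. Without DL1 it had 1.34, 1.48 and 1.51 FPKM in irradiated cultures and 0.964, 1.14 and 0.953 FPKM in control cultures. The 4 groups did not overlap, and the means were 9.89-fold higher with DL1 than without it in irradiated cultures and 17.3-fold higher in control cultures.

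Gzmc, which encodes a granzyme of activated mouse T and NK cells, differed the most. It had 29.9, 19.4 and 25.8 FPKM in irradiated cultures with DL1 and 28.6, 26.6 and 36.4 FPKM in control cultures with DL1. Without DL1 its values were 0.211, 0.348 and 0.286 FPKM in irradiated cultures and 0.699, 0.659 and 0.536 FPKM in control cultures. Every library with DL1 was thus far above every library without it, and the ratio of means was 88.8 in irradiated and 48.4 in control cultures. The values without DL1 lie under 1 FPKM, and these ratios are less certain than the levels with DL1.

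Gzma, whose product is a tryptase, was the lowest of the 3 and the most variable. It had 7.31, 1.94 and 2.82 FPKM in irradiated cultures with DL1 and 4.54, 3.75 and 7.13 FPKM in control cultures with DL1. It was listed at 0 in all 3 irradiated cultures without DL1 and in 2 of the 3 control cultures without DL1, the other having 0.0462 FPKM. The libraries with DL1 therefore did not overlap those without it, while irradiated and control cultures with DL1 overlapped. No ratio is given, since the groups without DL1 are at or near 0.

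**Figure D1:**
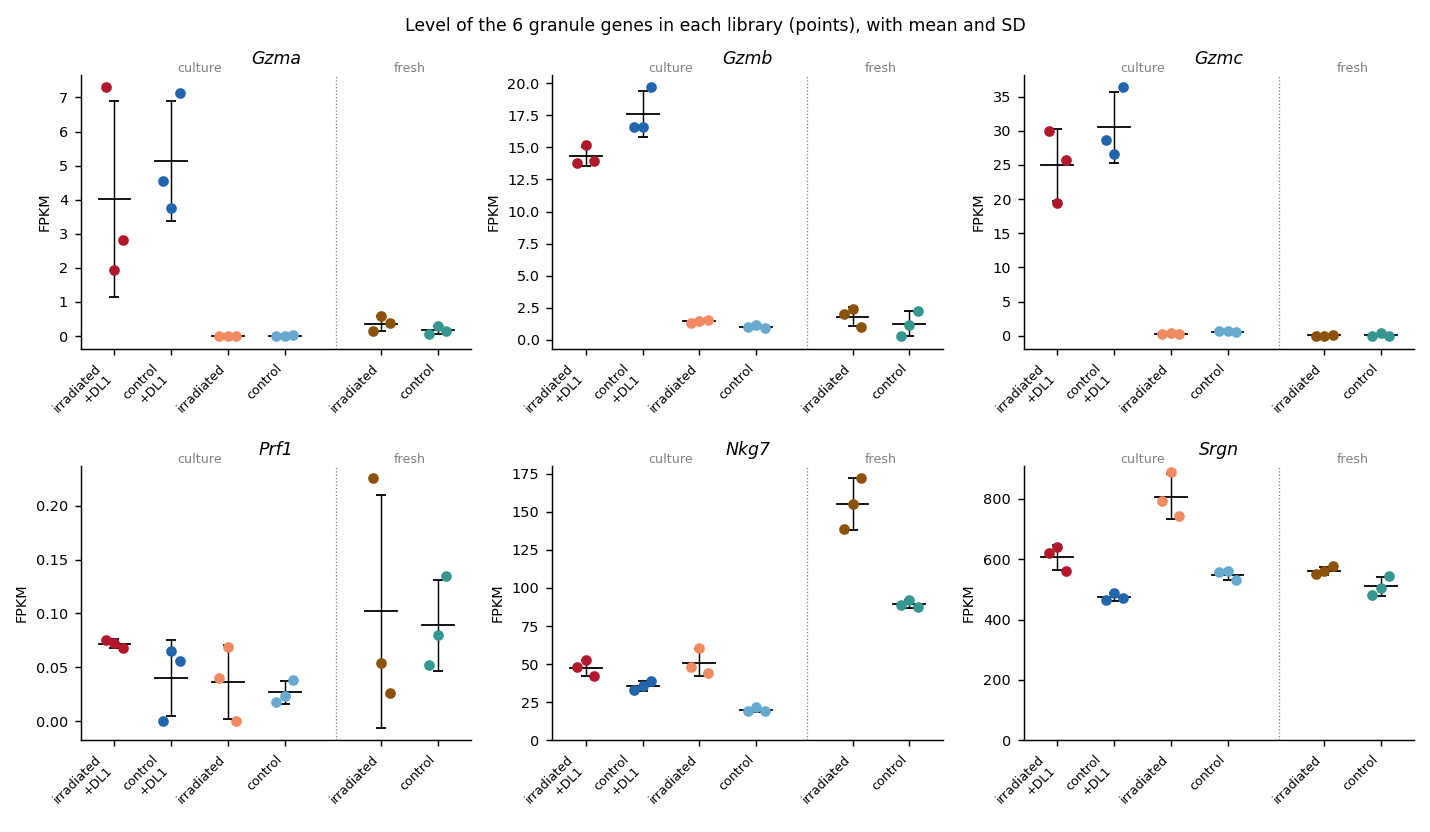
FPKM (linear axes, 1 panel per gene) of the 6 genes in each library (points), with the mean (bar) and SD (error bar, n = 3), for 4 cultured groups left and 2 freshly sorted groups right of the dotted line. Gzma, Gzmb and Gzmc stand up only in the cultures with DL1, Prf1 stays under 0.226 FPKM in every library, Nkg7 is lowest in control cultures without DL1 and Srgn highest in irradiated cultures without DL1.

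The 3 granzymes did not keep a constant proportion. The ratio of Gzmc to Gzmb in FPKM was 1.28 to 2.17 in irradiated and 1.60 to 1.85 in control cultures with DL1, against 0.158 to 0.235 in irradiated and 0.563 to 0.725 in control cultures without DL1. Gzmc thus exceeded Gzmb in all 6 cultures with DL1 and was below it in all 6 without. The sum of the 3 was 36.5 to 51.0 FPKM in irradiated and 46.9 to 63.2 FPKM in control cultures with DL1, against 1.55 to 1.83 FPKM in irradiated and 1.53 to 1.79 FPKM in control cultures without DL1.

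Prf1 did not accompany the granzymes. Its values were 0.0751, 0.0729 and 0.0676 FPKM in irradiated cultures with DL1 and 0, 0.0654 and 0.0553 FPKM in control cultures with DL1. Without DL1 they were 0.0398, 0.0690 and 0 FPKM in irradiated cultures and 0.0178, 0.0235 and 0.0383 FPKM in control cultures. Perforin RNA was thus close to 0 in every culture, and the groups with and without DL1 overlapped in control and in irradiated cultures. At these levels a difference is not detectable. The name cytotoxic granule genes therefore describes what the 6 genes are known for elsewhere, since the pore-forming partner was near 0 in these cells.

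Nkg7 and Srgn were present in every culture and did not follow the granzymes. Nkg7 had 48.1, 52.8 and 42.2 FPKM in irradiated cultures with DL1 and 32.7, 35.7 and 39.0 FPKM in control cultures with DL1. Without DL1 it had 48.0, 60.9 and 44.2 FPKM in irradiated cultures and 18.9, 21.7 and 19.1 FPKM in control cultures. With DL1 it was 1.80-fold higher in control cultures, without overlap, and 0.935-fold in irradiated cultures, where the groups overlapped.

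Srgn was the most abundant of the 6 by far, with 619.8, 640.2 and 561 FPKM in irradiated cultures with DL1 and 463, 488 and 470.4 FPKM in control cultures with DL1. Without DL1 it had 794, 888 and 742 FPKM in irradiated cultures and 558, 559.6 and 529.7 FPKM in control cultures. Its mean ranked 139 and 179 among all names in irradiated and control cultures with DL1, and 94 and 151 in those without DL1. With DL1 it was lower, at 0.751 of the level without DL1 in irradiated cultures and 0.864 in control cultures, without overlap in either.

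With DL1 against none, 4 of the 6 genes did not overlap in irradiated cultures and 5 of 6 in control cultures. Over all tested genes, 48.4% did not overlap in irradiated and 48.3% in control cultures. As the choice of the genes used this contrast, nothing is read from these counts.

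In cultures with DL1, the other granzyme genes were lower than Gzma, Gzmb and Gzmc, and none of the 7 passed the filter. Gzme averaged 0.374 ± 0.0706 FPKM in irradiated and 0.516 ± 0.0663 FPKM in control cultures with DL1, against 0.0152, 0 and 0 FPKM in irradiated and 0.0764 ± 0.0440 FPKM in control cultures without DL1. Gzmg averaged 0.315 ± 0.0290 FPKM in irradiated and 0.437 ± 0.0652 FPKM in control cultures with DL1, against 0.0154, 0.0178 and 0 FPKM in irradiated and 0.0312 ± 0.00465 FPKM in control cultures without DL1. Gzme and Gzmg, which lie in the same cluster as Gzmc, were thus higher with DL1 at low levels. Gzmm, an unlinked granzyme gene of innate lymphocytes, stayed between 0.551 and 0.651 FPKM on average in the 4 cultured groups, and without DL1 it was thus above Gzma. Gzmk and Gzmn were listed at 0 in all 12 cultures, and Gzmf in 11.

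Some granzyme genes of the cluster share stretches of sequence. Of the 50-base words in the annotated transcripts of Gzmc, 4.14% also occurred in another granzyme transcript, against 0% for Gzma and Gzmb 7.36% for Gzmf, 5.57% for Gzmn and 19.8 to 21.9% for Gzmd, Gzme and Gzmg. How reads that fit several genes were counted is not given in the sources used here, so that low values of Gzmd, Gzme and Gzmg beside a high Gzmc are uncertain. No annotated gene overlaps any of the 6 genes.

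The cluster that starts with Gzmb runs over 15 protein-coding genes in the order Gzmb, Gzmc, Gzmf, Gzmn, Gzmg, Gzmd, Gzme, Ctsg, Mcpt8, Mcpt4, Mcpt9, Mcpt2, Mcpt1, Cma2 and Cma1. Mcpt2 and Mcpt4, mast cell protease genes beyond Ctsg, rose with DL1 in irradiated cultures (3.06 ± 0.67 and 2.09 ± 0.62, limma adjusted p = 0.00333 and 0.0183). They rose in control cultures too. Cma1, the last gene, was not called in irradiated cultures (0.27 ± 0.52, adjusted p = 0.693). Of all tested genes, 24.4% were called higher with DL1 in irradiated and 14.0% in control cultures. Mcpt1, which encodes a mucosal mast cell chymase, passed the filter only through the cultures with DL1 and had 45.9, 58.0 and 25.2 FPKM in irradiated and 12.4, 80.3 and 177 FPKM in control cultures with DL1. Without DL1 its means were 0.309 ± 0.127 FPKM in irradiated and 0.189 ± 0.109 FPKM in control cultures. In control replicate 1 with DL1, the library lowest for Mcpt1 among the 6 with DL1, Gzmb was at 16.6 FPKM and Gzmc at 28.6 FPKM. The other control cultures with DL1 had 16.6 and 19.7 FPKM for Gzmb, and 26.6 and 36.4 FPKM for Gzmc.

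Ctsg, which lies between the granzyme and the mast cell protease genes and encodes the neutrophil and monocyte protease cathepsin G, averaged 731 ± 73.4 FPKM in irradiated and 480.5 ± 38.7 FPKM in control cultures with DL1, against 1180 ± 94.9 FPKM in irradiated and 762 ± 79.0 FPKM in control cultures without DL1. It fell with DL1 in irradiated (log2 -0.69 ± 0.096, adjusted p = 0.000139) and in control cultures (-0.66 ± 0.096, adjusted p = 0.000278). Mcpt8, a basophil protease gene, averaged 62.4 ± 8.15 FPKM in irradiated and 47.9 ± 3.79 FPKM in control cultures with DL1, against 84.2 ± 15.3 FPKM in irradiated and 49.1 ± 5.63 FPKM in control cultures without DL1. With DL1, Mcpt8 fell in irradiated cultures (-0.42 ± 0.13, adjusted p = 0.0255) and was not called in control cultures (-0.029 ± 0.13, adjusted p = 0.898).

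**Figure D2:**
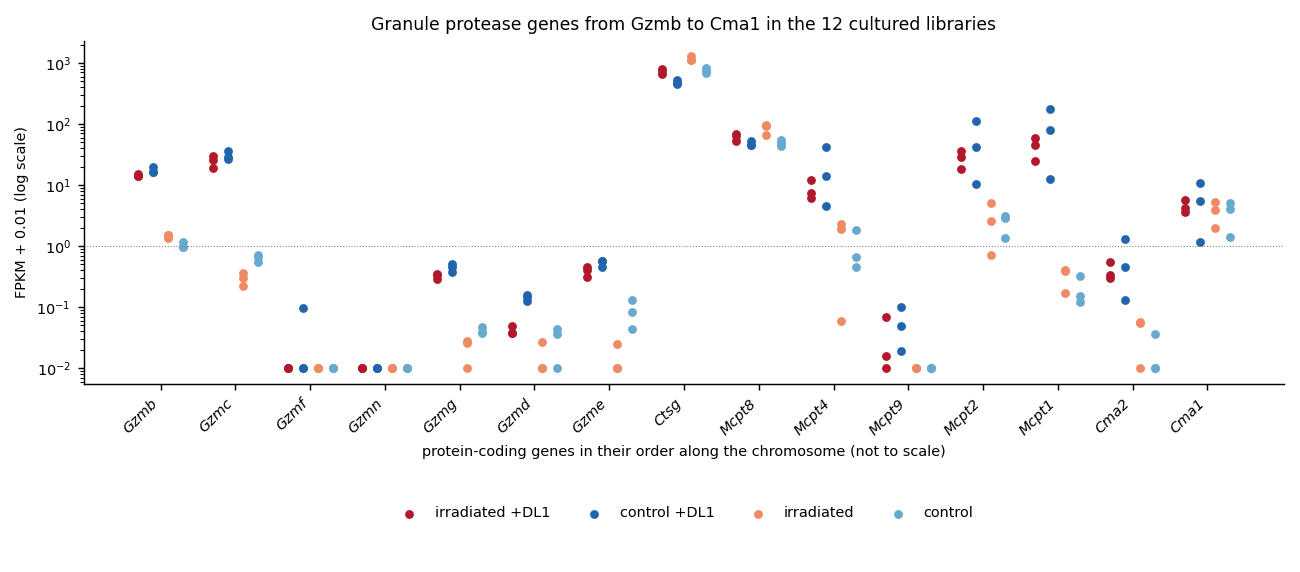
FPKM + 0.01 on a log axis for the 15 protein-coding genes from Gzmb to Cma1, in their order along the chromosome but not to scale, in the 12 cultured libraries (points, 3 per group). Gzmb and Gzmc separate the cultures with DL1 from those without it, Ctsg lies between 445 and 1288 FPKM, and Mcpt1 and Mcpt2 spread widely among control cultures with DL1; the dotted line marks 1 FPKM.

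The changes after irradiation were not used to choose the genes. In cultures without DL1, Nkg7, Srgn and Gzmb were called, all higher, while 29.7% of all 12011 tested genes were called and 13.8% were called higher. Nkg7 rose the most, to 51.0 ± 8.77 FPKM in irradiated cultures, against 19.9 ± 1.55 FPKM in control cultures, a 2.56-fold difference of means (1.3 ± 0.11, adjusted p = 8.6e-05). Srgn rose to 808 ± 74.3 FPKM in irradiated cultures, against 549 ± 16.8 FPKM in control cultures, 1.47-fold (0.55 ± 0.069, adjusted p = 0.000359). Gzmb rose to 1.44 ± 0.0917 FPKM in irradiated cultures, against 1.02 ± 0.103 FPKM in control cultures, 1.42-fold (0.28 ± 0.076, adjusted p = 0.0179).

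The 2 other granzymes were not called in cultures without DL1. Gzmc averaged 0.282 ± 0.0683 FPKM in irradiated and 0.631 ± 0.0850 FPKM in control cultures, without overlap (-0.35 ± 0.14, adjusted p = 0.0795), where 38.1% of all tested genes did not overlap. With a pseudocount of 0.1 in place of 1 it was called lower (-0.95, adjusted p = 0.00337); at these levels under 1 FPKM no change is read from either fit. Gzmb was not called with a pseudocount of 5 (adjusted p = 0.171), without control replicate 1 (0.0551), without irradiated replicate 2 (0.052) and when only the 2 groups were fitted (0.0694). Gzma was listed at 0 in 5 of these 6 libraries, so that its level there could not be compared.

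In cultures with DL1, 1 of the 5 tested genes was called, where 3.16% of all tested genes were called and 2.51% were called higher. This gene was Srgn, at 607 ± 41.1 FPKM in irradiated and 474 ± 12.8 FPKM in control cultures with DL1, 1.28-fold (0.35 ± 0.069, adjusted p = 0.0177). The call was lost in 4 of the 6 fits that left out 1 library, with adjusted p of 0.0930 and 0.0756 without irradiated replicates 2 and 1, and 0.0891 and 0.0775 without control replicates 1 and 3, at a change between 0.31 and 0.35. Irradiated replicate 2 is the library of low depth.

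Nkg7 was 47.7 ± 5.32 FPKM in irradiated and 35.8 ± 3.17 FPKM in control cultures with DL1, higher in each irradiated library but short of the threshold (0.40 ± 0.11, adjusted p = 0.0856). When only the 2 groups with DL1 were fitted, it was called higher (adjusted p = 0.0356). Gzmb was 14.3 ± 0.751 FPKM in irradiated and 17.6 ± 1.81 FPKM in control cultures with DL1, lower in each irradiated library (-0.28 ± 0.076, adjusted p = 0.0704), and was called lower with a pseudocount of 5 (-0.23, adjusted p = 0.0402). Of all tested genes, 33.1% did not overlap between irradiated and control cultures with DL1. Gzmc (-0.29 ± 0.14, adjusted p = 0.298) and Gzma (-0.40 ± 0.30, adjusted p = 0.495) overlapped between these groups.

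**Figure D3:**
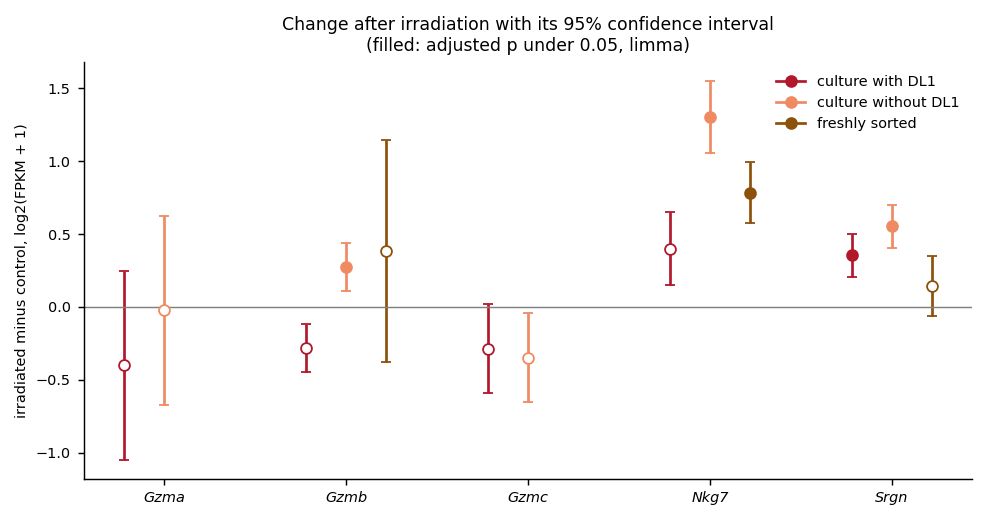
Difference between irradiated and control cells on the log2(FPKM + 1) scale, with its 95% confidence interval from limma, for the 5 genes that could be tested, in cultures with DL1, in cultures without DL1 and in freshly sorted cells (n = 3 against 3 each). Filled points passed an adjusted p of 0.05: Nkg7 at 1.3, Srgn at 0.55 and Gzmb at 0.28 without DL1, Srgn at 0.35 with DL1 and Nkg7 at 0.78 in fresh cells.

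The change after irradiation with DL1 was set against the change without DL1 in the same fit. This difference uses the libraries with DL1 that chose the genes, and equals the difference between the 2 DL1 changes. It is therefore given as a description. In the main fit none of the 5 genes passed limma's adjusted threshold for it, as 0.0749% of all tested genes did, and nothing is read from this. The change with DL1 minus that without DL1 was -0.90 ± 0.16 for Nkg7 and -0.56 ± 0.11 for Gzmb. It was -0.20 ± 0.097 for Srgn, -0.38 ± 0.42 for Gzma and 0.062 ± 0.20 for Gzmc.

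In freshly sorted cells, 1 of the 3 tested genes was called, where 0.101% of all 12890 tested genes were called and 0.0698% were called higher. Nkg7 had 139, 155 and 172 FPKM in irradiated cells, against 88.8, 92.2 and 87.3 FPKM in control cells. Each irradiated library lay above each control library, 1.74-fold in the means (0.78 ± 0.093, adjusted p = 0.0238). The call was lost without control replicates 1, 2 or 3 (adjusted p = 0.115, 0.0811 and 0.148) and without irradiated replicate 2 (0.0730), while the change stayed between 0.71 and 0.86 in all 6 such fits. It was also lost without a filter on the mean and with replicate number as a block, thus in 6 of 13 alternatives.

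Srgn had 549.7, 561 and 577 FPKM in fresh irradiated cells and 482, 503 and 545 FPKM in fresh control cells, without overlap but without a call (0.14 ± 0.091, adjusted p = 0.856, 95% confidence interval -0.065 to 0.35). Of all tested genes, 12.7% did not overlap. Gzmb had 2.02, 2.40 and 0.994 FPKM in irradiated and 0.303, 1.17 and 2.27 FPKM in control cells, with wide overlap (0.38 ± 0.33, adjusted p = 0.910). Gzma had 0.136, 0.584 and 0.378 FPKM in irradiated and 0.0624, 0.291 and 0.163 FPKM in control cells. Gzmc was listed at 0 in 2 of 3 libraries of each group, with 0.161 FPKM in the remaining irradiated and 0.363 FPKM in the remaining control library. Prf1 had 0.225, 0.0537 and 0.0261 FPKM in irradiated and 0.0517, 0.0802 and 0.135 FPKM in control cells.

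In order of mean level among cultures, Gzma, Gzmb and Gzmc stood highest in control cultures with DL1 and next in irradiated cultures with DL1. These neighbours overlapped for Gzma and Gzmc and did not for Gzmb. Srgn ran from irradiated cultures without DL1 through irradiated cultures with DL1 and control cultures without DL1 to control cultures with DL1, with no overlap between neighbours. Nkg7 stood highest in irradiated cultures without and with DL1, which overlapped, followed by control cultures with DL1 and, lowest, control cultures without DL1.

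Across the 12 cultured libraries, the genes most like each of the 5 were found by Pearson correlation of log2(FPKM + 1) over 12011 genes, as a description in which all points share the difference between groups. Gzma was most like Tox (r = 0.994), which encodes a nuclear factor of lymphocyte development, followed by the trypsinogen gene Prss2 (0.990) and the receptor gene Cd160 (0.988). Tox had 2.78, 1.3 and 1.91 FPKM in irradiated and 2.17, 2.06 and 2.97 FPKM in control cultures with DL1, so that irradiated replicate 1 and control replicate 3 were the highest for both genes. Gzmb was most like Scin (0.989), which encodes an actin-severing protein, and Gzmc (0.989). Gzmc was most like the interferon-inducible GTPase genes Tgtp (0.994) and Tgtp2 (0.994), names whose transcripts are near-identical copies. Nkg7 was most like Foxo4 (0.946), Hvcn1 (0.943) and Hdc (0.940), and Srgn most like Dio2 (0.992), Arsb (0.990) and Tgm2 (0.988).

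Ctsw and the genes Tox, Gata3 and Mcpt1 of the lists that follow passed the filter, like Gzma and Gzmc, only through the cultures with DL1. They had to differ with DL1, and their rise is given as a level and supports nothing. Of 10 genes listed for granule cargo processing, all tested, 8 rose and 0 fell in irradiated cultures without DL1. There 13.8% of all tested genes rose, and the median change of the list was 0.56 against -0.026 over all tested genes. The lysosomal membrane genes Lamp1 and Lamp2 and the chaperone gene Calr were among the 8. Ctsc (0.34 ± 0.14, limma adjusted p = 0.0751) and Ctsw were not called. Of the 10, 5 were called without irradiated replicate 2, without control replicate 2, without a filter and when only the 2 groups were fitted. Cst7, which encodes cystatin F, an inhibitor of granzyme-activating cathepsins, rose to 77.4 ± 5.08 FPKM in irradiated cultures, against 51.1 ± 2.67 FPKM in control cultures (0.59 ± 0.077, adjusted p = 0.000479). With DL1, 1 of the 10 was called after irradiation, again Cst7 (0.45 ± 0.077, adjusted p = 0.00976), where 3.16% of all tested genes were called. When only the 2 groups with DL1 were fitted, 8 of the 10 were called. Cst7 itself was not called without irradiated replicates 1 or 2 or without control replicate 1. In fresh cells limma called 0 of the 10, with or without robust estimation, 1 had an unadjusted p under 0.05, and the median was 0.0010. Of all tested genes, 0.101% were called there.

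With DL1 against none, 9 of the 10 fell and 1 rose in irradiated cultures, and 7 fell and 1 rose in control cultures, with medians of -0.81 and -0.67. Over all tested genes, 17.0% were called lower and 24.4% higher in irradiated cultures, and 12.3% lower and 14.0% higher in control cultures. The gene that rose was Ctsw, encoding cathepsin W of cytotoxic lymphocytes, with 2.10 ± 0.351 FPKM in irradiated and 2.95 ± 0.705 FPKM in control cultures with DL1, against 0.284 ± 0.120 FPKM in irradiated and 0.390 ± 0.116 FPKM in control cultures without DL1. Ctsc, which encodes cathepsin C, the enzyme that activates granzymes, fell with DL1 (-0.73 in irradiated and -0.74 in control cultures, adjusted p = 0.00122 and 0.00166).

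Of 13 tested genes for granule docking and release, 3 rose in irradiated cultures without DL1, namely Rab27a, Snap23 and Rab44, and 0 fell (1 to 5 called over the alternatives). Of all tested genes, 13.8% rose in this comparison. Rab27a, encoding a small GTPase of granule docking, rose by 0.38 ± 0.070 (adjusted p = 0.00283), and also with DL1 (0.32 ± 0.070, adjusted p = 0.0318), a call lost in 5 of the 6 fits that left out 1 library. With DL1 against none, 2 rose and 3 fell in irradiated cultures and 1 rose and 3 fell in control cultures. Over all tested genes, 24.4% rose and 17.0% fell in irradiated cultures, and 14.0% rose and 12.3% fell in control cultures. The same shares stand beside the counts with DL1 against none in the lists that follow. Coro1a, an actin regulator, rose in both, and Unc13d and Stx11, whose products are needed for granule release in cytotoxic lymphocytes, were called in neither.

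Of 11 tested genes for the chondroitin sulfate or heparin chains that serglycin carries, 8 rose and 0 fell in irradiated cultures without DL1. The median was 0.38, and 13.8% of all tested genes rose. Ndst2, a gene of heparin synthesis, is 1 of the 8, and it also fell with DL1 in irradiated cultures. Chst12, which encodes a chondroitin 4-sulfotransferase, rose to 55.8 FPKM in irradiated cultures without DL1, against 41.8 FPKM in control cultures (0.41 ± 0.053, adjusted p = 0.000465). With DL1, Chst12 alone of the 11 was called (0.33 ± 0.053, adjusted p = 0.00758), where 3.16% of all tested genes were called. In fresh cells limma called 0 of 12, with or without robust estimation, and 2 had an unadjusted p under 0.05, where 0.101% of all tested genes were called. With DL1 against none, 0 rose and 6 fell in irradiated cultures, and 2 rose and 4 fell in control cultures.

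Serpins that inhibit granzymes and related proteases included 5 tested genes, of which 3 rose and 1 fell with DL1 in irradiated and in control cultures. Serpinb9, whose product inhibits granzyme B in the mouse, rose to 4.64 FPKM in irradiated cultures with DL1, against 2.39 FPKM without DL1 (0.74 ± 0.11, adjusted p = 0.000274), and to 4.56 FPKM in control cultures with DL1, against 3.17 FPKM without DL1 (0.42 ± 0.11, adjusted p = 0.0158). Serpinb6b and Serpina3g rose too, and Serpinb6a fell. After irradiation without DL1, Serpinb1a rose (0.33 ± 0.073, adjusted p = 0.00638) and Serpina3g fell (-0.44 ± 0.11, adjusted p = 0.0106), and with DL1 none of the 5 was called. Of all tested genes, 29.7% were called after irradiation without DL1 and 3.16% with DL1.

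Of 9 tested genes for transcription factors of cytotoxic lineages, Runx3 and Stat4 rose with DL1 in irradiated and in control cultures. Tox and Gata3, let through the filter by the groups with DL1, were higher there too, with Gata3 at 1.67 FPKM in irradiated and 1.94 FPKM in control cultures with DL1, against 0.206 FPKM in irradiated and 0.198 FPKM in control cultures without DL1. Runx3 averaged 46.9 FPKM in irradiated and 49.0 FPKM in control cultures with DL1, against 33.2 FPKM in irradiated and 34.3 FPKM in control cultures without DL1 (0.48 ± 0.071 and 0.50 ± 0.071, adjusted p = 0.000241 and 0.00024). Eomes and Tbx21, which encode the T-box factors of NK and effector T cells, did not pass the filter, with means of 0.0298 and 0.58 FPKM in irradiated and 0.0221 and 0.557 FPKM in control cultures with DL1. With DL1, 4 others fell in irradiated and 2 in control cultures, among them Zeb2 and Nfil3 in both. Over the alternatives, 4 to 10 of this list were called in irradiated and 4 to 8 in control cultures.

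Markers of other cell types were followed beside the granzymes. The summed level of 14 NK cell markers was 54.7 to 67.6 FPKM in irradiated and 59.4 to 65.9 FPKM in control cultures with DL1, against 15.4 to 23.8 FPKM in irradiated and 17.4 to 25.3 FPKM in control cultures without DL1. The 3 that could be tested, Ccl5, Klrd1 and Cd244, rose with DL1 in irradiated and in control cultures. They made up most of the sum in irradiated cultures, at 24.8, 13.3 and 22.1 FPKM with DL1 against 3.15, 2.37 and 12.8 FPKM without it. Of the 14 markers, 8 averaged under 0.1 FPKM in irradiated and in control cultures with DL1. The defining receptor gene Ncr1 was listed at 0 in all irradiated cultures with DL1 and averaged 0.00871 FPKM in control cultures with DL1, and Klra8 was listed at 0 in all 12 cultures.

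The sum of 14 T cell markers was 39.1 to 59.0 FPKM in irradiated and 43.4 to 69.1 FPKM in control cultures with DL1, against 19.5 to 24.7 FPKM in irradiated and 16.7 to 19.8 FPKM in control cultures without DL1. Tcf7, which encodes a transcription factor of early T cell development, made up most of the sum with DL1, at 32.9 FPKM in irradiated and 38.9 FPKM in control cultures with DL1, against 3.85 FPKM in irradiated and 4.43 FPKM in control cultures without DL1. Without Tcf7 the other 13 summed to 12.4 to 14.5 FPKM in irradiated and 13.9 to 18.4 FPKM in control cultures with DL1, against 16.2 to 19.4 FPKM in irradiated and 13.6 to 14.8 FPKM in control cultures without DL1. Irradiated cultures with DL1 thus lay below those without DL1, and control cultures overlapped. Cd28 made up most of this sum in irradiated cultures without DL1, at 10.4 FPKM against 1.77 FPKM with DL1. Beside it only Cd8b1 was lower with DL1 in irradiated cultures without overlap. Cd3d, Cd3g, Lck, Zap70, Bcl11b and Lat were higher there without overlap, Cd3d, Zap70 and Bcl11b at under 1 FPKM. Of all tested genes, 48.4% did not overlap in this comparison. Of 5 tested, Tcf7, Lck and Lat rose and Cd28 fell with DL1 in both (1 to 7 called over the alternatives). Cd3e averaged 0.0176 FPKM in irradiated and 0.0687 FPKM in control cultures with DL1, and Bcl11b 0.0275 and 0.0278 FPKM. Cd3g, at 1.18 and 1.59 FPKM in these groups, was the highest of the CD3 chain genes Cd3d, Cd3e and Cd3g.

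The 8 innate lymphoid cell markers summed to 11.4 to 13.3 FPKM in irradiated and 9.93 to 12.2 FPKM in control cultures with DL1, against 10.2 to 14.4 FPKM in irradiated and 9.70 to 12.6 FPKM in control cultures without DL1, so that the groups with and without DL1 overlapped. Among those tested, Il7r fell with DL1 in irradiated and Klf2 in control cultures. The 7 plasmacytoid dendritic cell markers summed to 122 to 131 FPKM in irradiated and 128 to 136 FPKM in control cultures with DL1, against 94.2 to 104 FPKM in irradiated and 101 to 110 FPKM in control cultures without DL1. Bst2 made up most of this sum in irradiated cultures, at 86.3 FPKM with DL1 against 58.7 FPKM without it. Irf8 had 22.8 FPKM with DL1 against 27.7 FPKM without it there. Of 4 tested, 2 rose and 1 fell with DL1 in irradiated cultures, and 1 rose and 2 fell in control cultures, with Bst2 higher and Irf8 lower in both.

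The sum of 12 mast cell and basophil markers was 198 to 269.8 FPKM in irradiated and 135 to 519 FPKM in control cultures with DL1, against 162 to 181 FPKM in irradiated and 97.9 to 115 FPKM in control cultures without DL1. Of these, 4 rose and 3 fell with DL1 in irradiated cultures, and 5 rose and 0 fell in control cultures, counts that include Mcpt1, with 3 to 8 and 5 to 6 called over the alternatives. After irradiation without DL1, 4 of the 12 rose, Hdc, Mcpt8, Fcer1a and Prss34, where 13.8% of all tested genes rose. With DL1, 1 of the 12 was called, Hdc, where 3.16% of all tested genes were called. These markers moved in part with the granzymes and in part with Nkg7 and Srgn, and their part in the results was not tested. In bulk RNA, more cells of a type and more RNA per cell cannot be told apart.

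Genes of early granulocytes, the protease genes Elane, Prtn3 and Ctsg and the peroxidase gene Mpo, were followed beside Srgn and Nkg7. All 4 rose in irradiated cultures without and with DL1, where 13.8% and 2.51% of all tested genes were called higher. All 4 fell with DL1 in irradiated and control cultures. Elane, neutrophil elastase, averaged 673 FPKM in irradiated and 323 FPKM in control cultures with DL1 (1.05 ± 0.14, adjusted p = 0.00448), and 1234 FPKM in irradiated and 509.7 FPKM in control cultures without DL1 (1.26 ± 0.14, adjusted p = 0.000218). With DL1, where all 4 rose after irradiation, Srgn was called and Nkg7 was not (adjusted p = 0.0856). The part of these genes in the changes of Srgn and Nkg7 was not tested.

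**Figure D4:**
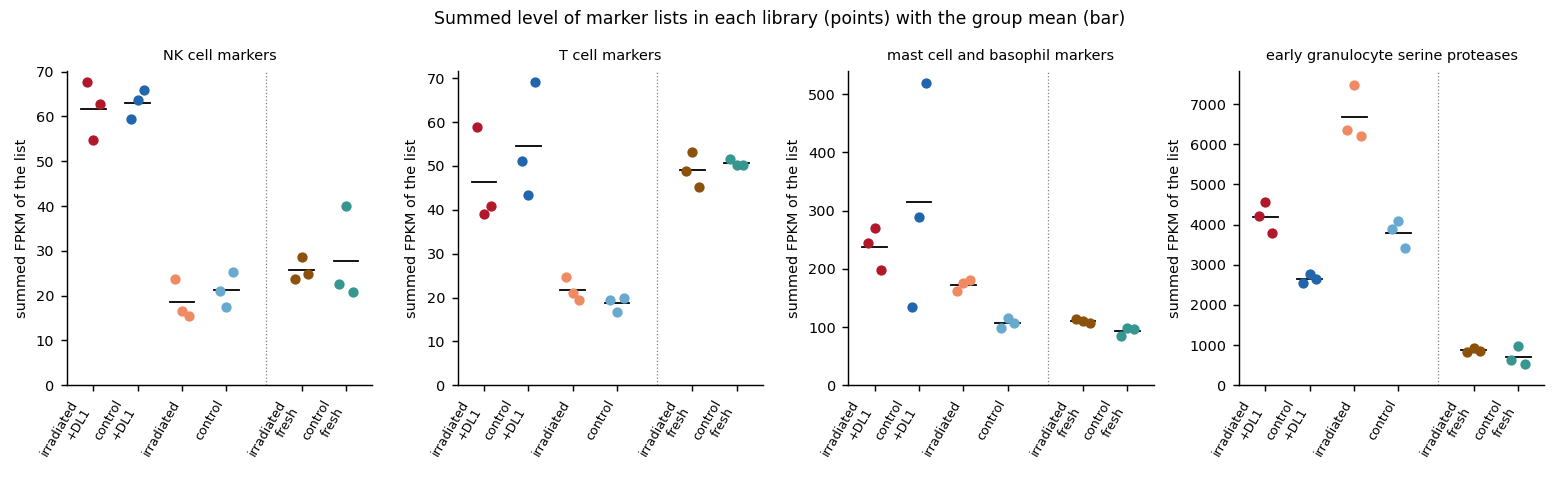
Summed FPKM of 4 marker lists in each library (points) with the group mean (bar), for cultured groups left and freshly sorted groups right of the dotted line. NK and T cell lists are higher in cultures with DL1 than without it, the NK cell list mainly through Ccl5, Klrd1 and Cd244 and the T cell list through Tcf7. The early granulocyte panel, which also sums Mpo, is highest in irradiated cultures without DL1. Mast cell and basophil markers spread from 135 to 519 FPKM among control cultures with DL1.

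In freshly sorted cells, where Nkg7 rose, none of the 85 tested list entries passed limma's adjusted threshold, with or without robust estimation, and 12 had an unadjusted p under 0.05. Of all 12890 tested genes only 0.101% were called there, so nothing is read from this count or from the list counts in fresh cells. The NK cell list summed to 23.8 to 28.6 FPKM in irradiated and 20.8 to 40.0 FPKM in control cells. The T cell list summed to 45.2 to 53.2 FPKM in irradiated and 50.3 to 51.5 FPKM in control cells. The 4 early granulocyte genes, Mpo among them, were all higher on average in irradiated cells, with a median of 0.40 against 0.0084 over all tested genes. Of these, 0 of 4 were called, and 2 had an unadjusted p under 0.05.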

How the data were processed

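Gene-level RNA-seq values of 18 libraries were used as the authors deposited them, in FPKM, as 2 separately normalized tables of 25629 rows each. Per the submitters' processing notes, TopHat 1.4.1, Cufflinks 1.3.0 and Cuffdiff were named together with hg19, a human build, for these mouse samples, so the build used, the annotation and the counting rules are uncertain. Columns were matched to samples by title. One cultured column with its number placed ahead of DL1 was read as irradiated replicate 1 with DL1. The source field of control samples names irradiated cells, and titles and conditions were used. Of 28 rows that repeat a name, the one with the higher mean was kept.

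Tests used limma 3.58.1 in R 4.3.3 on log2(FPKM + 1), a scale that understates fold changes of low genes, with a mean-variance trend. A gene was tested where its mean FPKM in a table was 1 or higher, with Benjamini-Hochberg adjustment over all such genes and a threshold of 0.05. All 4 cultured groups entered a single fit. The method was tested on simulated data. Read counts cannot be had from these values, so the absolute depth is unknown and low values carry an unknown counting error. Each culture came from 1 mouse and each fresh library from 3 pooled mice, per the labels, and whether same-numbered cultures share a mouse is not given.

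The 6 genes, the 14 lists (132 of 135 entries matched a row) and the motifs were chosen with earlier results of these data known. Named were all 6 genes, in each list the called genes with the smallest p (at most 4) and those of highest level, and the 3 genes most like each member. Markers at or near 0, Unc13d, Stx11, Serpinb6a and Ctsc were named after their values were seen, as were the genes of the cluster. The result of 1 listed gene is not reported here. Promoter windows and gene order come from RefSeq for GRCm38.p6, and transcripts and overlaps from GENCODE M21. The alternatives tried were a pseudocount of 0.1 or 5, a filter at 5 or none, median-ratio scaling, fits of 2 groups only, a replicate block, robust estimation and leaving out each library.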

Additional observations from a re-analysis of the deposited data

Results flagged for a closer look

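Gzmb was the 1 result in which irradiated libraries moved in opposite directions under the same contrast. Every irradiated culture with DL1 lay below every control culture with DL1, and every irradiated culture without DL1 lay above every control culture without DL1. Of all tested genes, 33.1% did not overlap, in either direction, after irradiation with DL1 and 38.1% without it. The fall of Gzmb with DL1 was not called, and the call of its rise without DL1 was lost in 4 of 14 alternatives. The difference between both changes was -0.56 ± 0.11 on the log2(FPKM + 1) scale. This difference did not pass limma's adjusted threshold in the main fit. Nothing is read from that, since the libraries with DL1 chose the gene.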

How the results depend on the processing

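The number of the 6 genes called after irradiation was 3 in cultures without DL1 and stayed within 1.5 times that number under all alternatives run. In fresh cells it was 1, and 0 without a filter (Nkg7 adjusted p = 0.117) or with the replicate block (0.0532), and 0 to 1 when 1 library was left out. In cultures with DL1 it was 1, and 2 with a pseudocount of 5, when only the 2 groups were fitted and with the replicate block (Nkg7 adjusted p = 0.0496), 0 without a filter (Srgn adjusted p = 0.0517), and 0 to 1 when 1 library was left out. For the difference with and without DL1, no number of called genes is given for the alternatives, since this difference uses the libraries that chose the genes. The Gzmc difference of 0.062 turned to -0.16 with a pseudocount of 5, and ran from -0.072 (without irradiated replicate 1 with DL1) to 0.23 when 1 library was left out, -0.028 without control replicate 2 with DL1. Replicate numbers did not clearly pair the cultures. Deviations of same-numbered cultures correlated between -0.168 and 0.355, over 0.1 in 6 of 18 pairs. Those of differently numbered cultures ran from -0.434 to 0.331. Same-numbered fresh libraries correlated between 0.0571 and 0.211, over 0.1 in 2 of 3 pairs, against -0.223 to 0.0737 for different numbers. Whether the numbers pair the fresh libraries could not be settled. Of 12 cultured and 6 fresh libraries, 6 and 5 correlated best with their own number. The cause of these changes was not tested.

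Among all genes, calls after irradiation in fresh cells numbered 13, but 4 without a filter, 5 without irradiated replicate 1 and 20 with robust estimation. Fits of 2 groups gave 1623 in place of 3568 calls without DL1 and 1072 in place of 380 with DL1, and no filter gave 222 with DL1. Calls for the difference numbered 9, but 18 with a pseudocount of 5, 5 at a mean of at least 5, 3 without a filter or with the block, and 193 without irradiated replicate 3 (0 to 7 without any other single library). Leaving out 1 library gave 104 to 285 calls with DL1. With median-ratio scaling the share of higher calls was 57.5% in place of 46.5% after irradiation without DL1, and with DL1 against none 45.2% in place of 59% in irradiated and 42.2% in place of 53.1% in control cultures. The log2 differences of Gzma, Gzmb and Gzmc with DL1 depended on the pseudocount, from 0.81 to 6.03 over all alternatives, and kept their sign.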
